A study of Mus musculus with 2 samples.

Results

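The F13a1/Ccr2-gated cells were the monocyte-labelled cells among Cxcl12-GFP+ cells sorted from mouse femurs for single-cell RNA sequencing. A cell was a barcode with at least 1000 detected genes and at most 15% mitochondrial UMIs, a UMI being a molecular tag that counts 1 captured transcript once. The gate kept cells in which F13a1, Ccr2, Ms4a6c and Csf1r together reached 4 UMIs per 10000 and F13a1 plus Ccr2 reached 2 raw UMIs. It removed cells with Prss34 plus Mcpt8 at 5 per 10000 or more, Elane plus Mpo at 10 per 10000 or more, more than 1 C1qa UMI, or Adipoq, Lpl and Hp together at 10 per 10000 or more. This left 65 of 7332 cells. Mouse #1 gave 44 of 2750 cells (1.60%, 95% Wilson interval 1.19 to 2.14%) and Mouse #2 gave 21 of 4582 cells (0.458%, 0.300 to 0.700%). Wilson intervals cover counting error only. The genes of the gate are given below as descriptions and not as findings.

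Both mice belonged to 1 group, so no animals were compared, and each comparison below sets 1 class of cells against another inside the same animals. The genotype was Cxcl12(GFP/+); Cxcl12-iCreER; R26R(tdTomato/+), with tamoxifen given at P21 and cells taken at P28. GFP sits in 1 Cxcl12 allele and marks cells in which that locus is active. The iCreER transgene under Cxcl12 control switches on tdTomato after tamoxifen. The distal growth plates and the proximal ends of the femurs were removed, the remaining bone was digested, and 1 library was made per mouse with the 10x 3′ version 3 chemistry. The label of the cells names GFP+ marrow mesenchymal cells, while the protocol field names tdTomato+ cells. They were taken here as sorted for GFP. A hematopoietic class within such a sort holds only the cells that passed a gate meant for stroma, and its share is not the share of monocytes in marrow.

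Monocytes are circulating myeloid cells that form in bone marrow from granulocyte-monocyte progenitors. Classical monocytes of the mouse carry the surface antigen Ly6C and the chemokine receptor CCR2, whose ligand CCL2 draws them out of the marrow, and they give rise to tissue macrophages and some dendritic cells. Ly6C-low monocytes carry the fractalkine receptor CX3CR1 and patrol vessel walls. The colony stimulating factor 1 receptor, encoded by Csf1r, carries the main growth and survival signal of the lineage, and the transcription factors PU.1 and C/EBP set up its gene expression.

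The upstream sequences of 3 genes that chose the cells, F13a1 (coagulation factor XIII A chain), Ccr2 and Ms4a6c (a membrane protein of the MS4A family), are shown with that of Ctss (cathepsin S), which the gate did not use. Each runs 5′ to 3′ on the strand of the gene over the 250 bases before a RefSeq start site in GRCm38.p6, and capitals mark the PU.1 core motif GAGGAA.
F13a1, first of 2 listed starts, chr13:37050245-37050494, minus strand: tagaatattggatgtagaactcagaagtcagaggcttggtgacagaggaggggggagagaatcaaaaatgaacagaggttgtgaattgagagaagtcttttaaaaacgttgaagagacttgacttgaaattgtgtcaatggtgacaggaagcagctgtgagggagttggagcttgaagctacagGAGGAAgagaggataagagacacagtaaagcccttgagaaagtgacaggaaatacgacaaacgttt
Ccr2, chr9:124101933-124102182, plus strand: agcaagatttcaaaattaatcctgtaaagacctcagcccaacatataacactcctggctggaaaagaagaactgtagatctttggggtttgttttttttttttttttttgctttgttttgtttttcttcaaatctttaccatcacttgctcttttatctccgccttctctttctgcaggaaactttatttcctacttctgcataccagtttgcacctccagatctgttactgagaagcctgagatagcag
Ms4a6c, chr19:11469118-11469367, plus strand: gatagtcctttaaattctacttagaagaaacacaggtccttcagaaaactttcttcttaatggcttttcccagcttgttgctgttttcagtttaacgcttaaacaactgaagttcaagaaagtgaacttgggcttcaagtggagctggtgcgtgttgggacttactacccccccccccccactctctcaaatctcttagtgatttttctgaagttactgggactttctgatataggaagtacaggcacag
Ctss, chr3:95526536-95526785, plus strand: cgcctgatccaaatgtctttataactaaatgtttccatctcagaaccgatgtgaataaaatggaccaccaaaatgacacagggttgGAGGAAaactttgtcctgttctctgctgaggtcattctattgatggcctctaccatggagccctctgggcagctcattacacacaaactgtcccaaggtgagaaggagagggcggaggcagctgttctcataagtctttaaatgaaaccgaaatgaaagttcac
The search for GAGGAA covered both strands. It matched once before F13a1, at 66 to 61 bases upstream, and once before Ctss, at 164 to 159 bases upstream, and it had no match before Ccr2 or Ms4a6c. Of the windows not shown, the second F13a1 start, S100a4 and Lyz2 had 0 matches, and the listed starts of Ly6c2 had 1 and 2. Among 32851 RefSeq promoter windows of this length, 7639 (23.3%) held the motif. The C/EBP motif TTNNGCAA, found in 9.56% of the windows, had no match in the 4 shown.

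The gate did not select 1 uniform set of cells. Ms4a6c was detected in 48 of the 65 cells, 36 of 44 in Mouse #1 (81.8%) and 12 of 21 in Mouse #2 (57.1%), and these held 90.5% and 64.8% of the gated UMIs. Of the 17 cells without Ms4a6c, 8 had F13a1 without Ccr2 (1 in Mouse #1 and 7 in Mouse #2) and 9 had Ccr2 without F13a1 (7 and 2). The last of these sets made up 15.9% and 9.52% of the gated cells of the respective mouse, and the F13a1 set 2.27% and 33.3%. The split by Ms4a6c was made after values had been seen, so it is described and not tested.

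Most of the 48 cells with Ms4a6c carried the monocyte markers. Lyz2 (lysozyme) had a UMI in 46 of them, Tyrobp and Fcer1g (signaling adaptors of myeloid receptors) in 47 each, Ctss in 47, Ly6c2 in 41, Fn1 (fibronectin) in 39, Plac8 in 46 and S100a4 (a calcium-binding protein) in 44. Plain CPM, UMIs per 1000000 of the summed cells, are given in the order Mouse #1 and Mouse #2. The levels within these cells were 10499 and 13282 for Lyz2, 1887 and 1390.0 for Ly6c2, 1141 and 1912 for Fn1 and 1285 and 1479 for S100a4. The genes of the gate stood at 779 and 825 CPM for F13a1, 682 and 597 for Ccr2, 1008 and 800.4 for Ms4a6c and 167 and 186 for Csf1r. The lowest, median and highest summed Lyz2, Tyrobp and Fcer1g per cell were 0, 168 and 580 UMIs per 10000, and 47 of the 48 cells had at least 10 UMIs of the 3 genes. This set was not uniform either. At least 10 UMIs of collagen genes and Sparc were seen in 4 of the 48 cells. At least 10 UMIs of H2-Aa, H2-Ab1 and H2-Eb1 were seen in 3, and 1 cell of Mouse #1 had 1538 S100a8 UMIs per 10000.

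The 8 cells with F13a1 but neither Ccr2 nor Ms4a6c went against the monocyte label. Lyz2, Tyrobp, Ptprc (the leukocyte antigen CD45), Ly6c2, Csf1r and Ctss were at 0 UMIs in all 8, and Fcer1g had 2 UMIs in 1 cell. Instead Col1a1 (a collagen I chain) had 1125 UMIs over 8 of 8 cells, Igf1 (insulin-like growth factor 1) 396 over 8, Mmp13 (a collagenase) 207 over 8, Gas6 198 over 8, Tnc (tenascin C) 272 over 7 and Kcnk2 (a potassium channel) 140 over 7. Col1a1, Col1a2, Col3a1 and Sparc together reached 158 to 1193 UMIs per cell. F13a1, through which these cells entered the gate, had 104 UMIs over them, and Fn1 had 198.

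The 9 cells with Ccr2 but neither F13a1 nor Ms4a6c were leukocytes by Ptprc, which had 76 UMIs over 9 of 9 cells, but Lyz2 was at 0. Markers of cytotoxic lymphocytes stood high in them. Nkg7 and Gzma (proteins of cytotoxic lymphocyte granules) had 126 UMIs over 6 cells and 161 over 5, and Ccl5 (a chemokine of lymphocytes) had 533 over 6. The T and NK marker list reached at least 10 UMIs in 5 of the 9 cells, and 1 more cell held 107 of 110 UMIs of the plasmacytoid dendritic list, which includes Siglech. No cell type name is given here to either set without Ms4a6c.

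**Figure D1:**
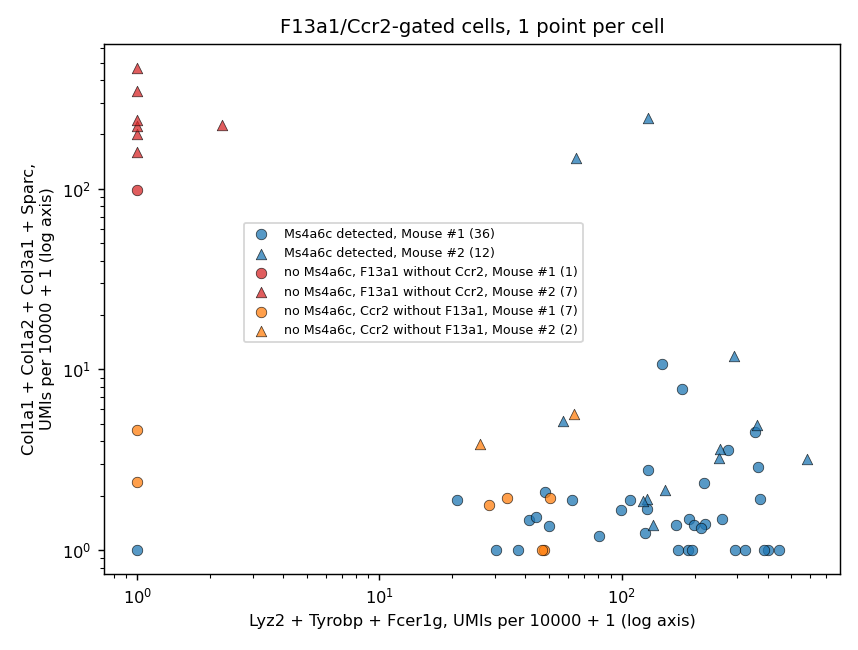
Each point is 1 gated cell, placed by its summed Lyz2, Tyrobp and Fcer1g (horizontal) and its summed Col1a1, Col1a2, Col3a1 and Sparc (vertical), both as UMIs per 10000 plus 1 on log axes, with color for Ms4a6c, F13a1 and Ccr2 detection and shape for the mouse. The 8 cells with F13a1 but neither Ccr2 nor Ms4a6c lie at the upper left, and 47 of the 48 cells with Ms4a6c lie to the right.

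Markers of other cell types within all 65 gated cells came mostly from a few cells. The neutrophil list gave 2412 UMIs, of which 2156 came from 1 cell of Mouse #1, and 12 cells had at least 10. The granulocyte progenitor list (Elane, Mpo, Prtn3, Ctsg and Ms4a3) gave 638 UMIs with 9 cells at 10 or more, the stromal list 2095 with 12 cells, the erythroid list 341 with 6 cells and the B cell list 339 with 5 cells. The conventional dendritic list gave 147 UMIs with 5 cells at 10 or more, the macrophage list 111 with 2 cells and the osteoclast list 76 with 3 cells. The endothelial list (17 UMIs), the basophil list (8) and the megakaryocyte list (2) reached 10 UMIs in no cell. For genes called higher in the gated cells, the share of gated UMIs that came from the 17 cells without Ms4a6c is given where it exceeded 20%, and the share from 1 cell where that exceeded 40%. What these cells contributed to other results was not tested.

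Some limits of the gate had cells close by on both sides, and others did not. The nearest gated and excluded cells had 9.90 and 10.06 Adipoq, Lpl and Hp UMIs per 10000, but 0 and 20 C1qa UMIs. The gated cell nearest the limit on the sum of the 4 marker genes had 4.65 UMIs per 10000, while the nearest of 25 cells that failed only this limit had 3.63. A further 27 cells failed only the limit on Elane plus Mpo, 38 only that on Adipoq, Lpl and Hp, 8 only the raw UMIs, 5 only C1qa and 2 only the basophil genes. Dropping Hp, which monocytes can express, raised the shares to 2.25% and 0.611%, and raising the limit on the sum to 8 lowered them to 1.31% and 0.306%. Mouse #1 had the larger share under each of these settings. With 1 library per mouse this difference has no replicate.

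The libraries held 54940400 and 88790688 UMIs, of which the gated cells gave 852227 and 431985. The median gated cell had 15975 and 17593 UMIs. Of the barcodes called cells, 7 occurred in both libraries and 0 of them were gated. Free RNA was read from barcodes with 1 to 100 UMIs, where Lyz2 stood at 798 and 417 CPM and Ly6c2 at 211 and 61.7. In B cells, which should lack both genes, Lyz2 was at 11.3 and 9.34 CPM and Ly6c2 at 5.10 and 3.44.

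To compare detection at 1 depth, each cell was thinned to 2000 UMIs. Lyz2 was then seen in 72.7% and 57.1% of gated cells (77.3% and 57.1% unthinned) against 1.35% and 2.58% of B cells. Ly6c2 was seen in 59.1% and 47.6% (72.7% and 57.1% unthinned) against 1.35% and 0%. S100a4 was seen in 63.6% and 52.4% (79.5% and 71.4% unthinned) against 0% in both mice, where 0 of 222 and 0 of 233 thinned B cells allow shares of up to 1.35% and 1.29%. The B cells had median depths of 4909.5 and 4376 UMIs, and 2 of those in Mouse #2 were too shallow to thin. These shares in gated cells lay above the B cell shares in both mice.

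**Figure D2:**
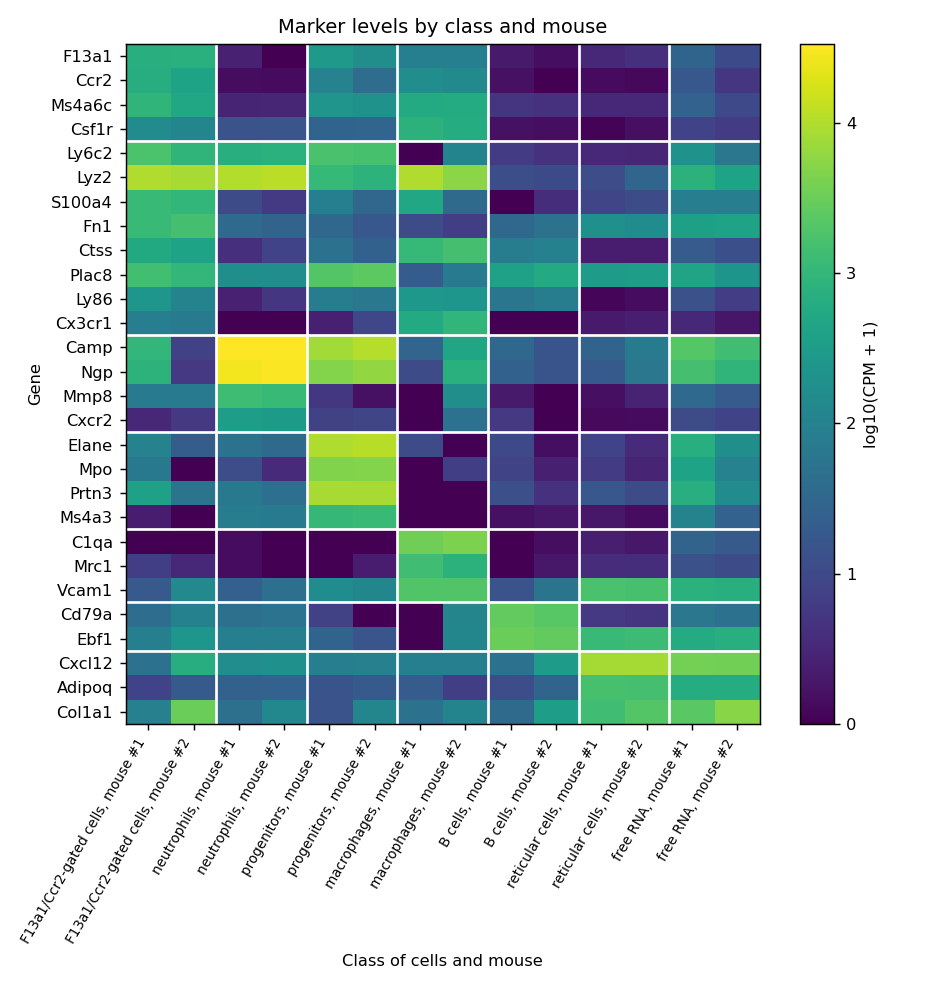
Colors give the level of each gene (vertical) as log10 of plain CPM plus 1 in each class of cells and mouse (horizontal), with white lines between marker sets and between classes. Lyz2 is bright in gated cells, neutrophils and macrophages of both mice, Cx3cr1 is dark in neutrophils and B cells, and Col1a1 is brighter in the gated cells of Mouse #2 than in those of Mouse #1.

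Myeloid cells of 3 other classes in the same libraries served for comparison. Maturing neutrophils (182 and 193 cells) carried Camp, Ltf, Ngp and Retnlg at 20 or more UMIs per 10000. They also had fewer than 2 F13a1 plus Ccr2 UMIs, and Elane plus Mpo under 10 per 10000. Elane/Mpo-high progenitors (74 and 34 cells) carried Elane plus Mpo, enzymes of primary granules, at 10 or more per 10000. C1q-positive macrophages (6 and 8 cells) carried at least 2 C1qa UMIs and complement C1q genes at 10 or more per 10000. The B cells carried Cd79a plus Cd79b at 4 or more per 10000, with the same limits on F13a1, Ccr2, Elane and Mpo as neutrophils. Gated cells were assigned before all other classes. UMIs were summed per mouse and class and tested with edgeR over 2 mice. Each test sets the difference between class means against the spread between the sums of the mice. A call does not require that both mice show the difference. The classes were chosen by expression and the test cannot tell a property of a cell type from that choice. Scaled CPM are UMIs per 1000000 on the library sizes of that fit and are given beside each test, in the order Mouse #1 and Mouse #2. This scaling lowered the gated values below plain CPM and raised those of the neutrophils, in both mice. Fold changes against neutrophils are therefore lower than plain CPM would give. Fold changes are on the log2 scale as gated cells minus the other class, with the standard error (SE), and p-values were adjusted by Benjamini-Hochberg over 10843 genes. Since 2 mice were used and 1 library came from each, p-values measure the spread between these libraries. The 3 comparisons share the gated sums.

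Against maturing neutrophils, the gated cells were higher in the cathepsins Ctss, Ctsb, Ctsc and Ctsz, the fractalkine receptor Cx3cr1, the class II loading gene H2-DMa and the transcription factors Irf8, Irf5 and Zeb2. They were lower in granule genes, in several oxidase subunits and in the cathepsin Ctsd. Of all genes, 23.8% were called, 10.2% higher and 13.6% lower in the gated cells. The median log2 fold change of all genes was 0.06.

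Among the classical monocyte genes, 5 of 11 tested were higher (Fn1, Vcan, Plac8, Ly86 and Ctss) and 3 lower (Chil3, Lyz2 and Gda), with a median of -0.16. Fn1 stood at 945 and 1238 scaled CPM against 57.7 and 47.4 in neutrophils, a log2 fold change of 4.37 ± 0.37 (edgeR adjusted p = 0.000148). Ctss, a lysosomal protease of antigen processing, stood at 491 and 327 against 5.18 and 12.8, with 5.49 ± 0.52 (edgeR adjusted p = 0.000221). Both genes were high in the gated cells of both mice with no overlap with neutrophils. Lyz2 was abundant in both classes, at 8169.5 and 6789 in gated cells and 17075 and 20194 in neutrophils, and its difference was -1.32 ± 0.29 (edgeR adjusted p = 0.0101). Ly6c2 had 1489.7 and 711 against 1124 and 1346, with overlapping values and -0.16 ± 0.59 (edgeR adjusted p = 0.867). Of the Vcan UMIs 23.5% came from cells without Ms4a6c. The Ly6c1 and Ly6c2 transcripts (844 and 822 bases) align at 97.6% identity, so the split of reads between both genes is uncertain.

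Of the Ly6C-low monocyte genes, 4 of 11 tested were higher, Cx3cr1, Pou2f2, Gngt2 and Eno3, and none was lower (median 0.87). Cx3cr1 had 74.6 and 54.8 scaled CPM and 0 UMIs in the neutrophils of both mice, at least 147-fold higher against a floor of 3 UMIs over the group. Pou2f2, a B and myeloid cell transcription factor, had 96.8 and 73.1 against 10.4 and 8.505, with 3.18 ± 0.43 (edgeR adjusted p = 0.000909).

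Of the transcription factors, 7 of 18 were higher (Irf8, Klf4, Zeb2, Irf5, Maf and Runx1 among them) and 3 lower (Spi1, Cebpe and Gfi1), with a median of 1.17. Irf8, which is needed for monocyte and dendritic cell formation, stood at 403 and 84.0 scaled CPM against 7.78 and 21.3, with 4.08 ± 0.68 (edgeR adjusted p = 0.00266). Irf5, a regulator of inflammatory genes, stood at 138 and 74.9 against 7.78 and 6.68, with 3.89 ± 0.37 (edgeR adjusted p = 0.000212). Zeb2 stood at 477 and 378 against 103 and 84.4, with 2.19 ± 0.25 (edgeR adjusted p = 0.000432). These factors were higher in the gated cells of both mice, though Irf8 varied widely between the mice. Cebpe, a factor of granule formation in neutrophils, was at 21.2 and 3.65 against 641 and 697, with -5.57 ± 0.64 (edgeR adjusted p = 0.000449). Of the Maf UMIs 40.8% came from cells without Ms4a6c, as did 30.9% of those of Runx1.

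The receptors of growth factors gave 3 higher (Tnfrsf11a, Ifngr1, Il6ra) and 3 lower (Csf3r, Csf2ra, Tyrobp) of 10 tested, with a median of 0.28. Csf3r, the receptor of the neutrophil growth factor G-CSF, stood at 34.3 and 14.6 scaled CPM against 424 and 328, with -3.86 ± 0.56 (edgeR adjusted p = 0.00140). Csf1r belonged to the gate and was not tested. Among chemokine receptors and adhesion genes, 3 of 15 were higher (Cx3cr1, Itga4, Itgb7) and 6 lower (Cxcr2, Ccr1, Itgb2, Itgal, Pecam1, S1pr4), with a median of -0.93. Itgb7 and Itga4 encode both chains of the α4β7 integrin. Itgb7 had 244 and 89.5 against 5.83 and 6.68, with 4.74 ± 0.53 (edgeR adjusted p = 0.000612), and Cxcr2, the receptor that draws neutrophils out of marrow, had 2.02 and 3.65 against 566 and 517, with -7.64 ± 0.85 (edgeR adjusted p = 0.000392).

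The pattern recognition and Fc receptor genes divided into 6 higher and 5 lower of 19 tested (median -0.20). Higher were Msr1 (a scavenger receptor), the lectins Clec4a1 and Clec4a3, the Toll-like receptor partners Ly86 and Cd180, and Trem2. Lower were Clec4e, Clec12a, Fcgr3, Fcgr4 and Fcer1g. Msr1 had 66.6 and 62.1 scaled CPM against 1 neutrophil UMI, a ratio of 424 (95% exact counting interval 74.4 to 16917, edgeR adjusted p = 0.000611). Clec4a1 had 80.7 and 65.8 against 4.54 and 1.21, with 4.66 ± 0.62 (edgeR adjusted p = 0.00128). The lysosome and oxidative burst list gave 8 higher and 8 lower of 19 tested (median 0.16). Higher were the proteases Ctss, Ctsb, Ctsc and Ctsz with Psap, Cd68, Mpeg1 and Lamp1. Lower were, among others, the oxidase subunits Cybb, Cyba, Ncf1 and Ncf4 with Lyz2, Ctsd and Slc11a1. Ctsc stood at 404 and 252 against 18.8 and 17.6, with 4.17 ± 0.34 (edgeR adjusted p = 0.000148), and Ncf1 at 104 and 58.4 against 815 and 928, with -3.40 ± 0.31 (edgeR adjusted p = 0.000198).

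Among S100, annexin and related genes, 5 of 12 were higher (S100a4, S100a10, Anxa5, Lgals1, Tmsb10) and 4 lower (S100a8, S100a9, S100a11, Anxa1), with a median of -0.30. S100a4 stood at 1008 and 771 scaled CPM against 16.2 and 8.505, with 6.17 ± 0.99 (edgeR adjusted p = 0.00221), and Lgals1 (galectin 1) at 1457 and 1056 against 62.2 and 66.2, with 4.29 ± 0.30 (edgeR adjusted p = 0.000107). S100a8 and S100a9 in the gated cells were nearly all from 1 cell of Mouse #1, which held 96.1% and 98.0% of their UMIs.

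Of the antigen presentation genes, 8 of 14 were higher and none lower (median 3.75, or 4.49 with genes at 0 in neutrophils set at their floor), though the class II genes were uneven. H2-DMa, a chaperone of class II peptide loading, was seen in 45 gated cells, at 173 and 82.2 scaled CPM against 2.59 and 2.43, with 5.65 ± 0.49 (edgeR adjusted p = 0.000148). Cd74, the class II invariant chain, stood at 1063 and 102 with 49.0% of its UMIs in 1 cell, and H2-Aa, H2-Ab1 and H2-Eb1 each had over 60% in 1 cell. At least 10 UMIs of these 3 chains were seen in 4 cells of Mouse #1 and 0 cells of Mouse #2. The other genes called were H2-DMb1, Cd209a (7 cells) and Ctss.

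Of the interferon response genes, 3 of 13 were higher (Ms4a4c, Ifi204, Zbp1) and 3 lower (Ifitm1, Ifitm6, Oasl2), with a median of 0.28. Ms4a4c had 162 and 82.2 scaled CPM against 1 neutrophil UMI, a ratio of 874 (95% exact counting interval 155 to 34675, edgeR adjusted p = 0.000121). Among the cytokines, Ccl9 and Tgfb1 were higher and Tnfsf13b lower of 14 tested (median -0.69). Ccl9, a chemokine made by myeloid cells, had 172 and 155 against 1.30 and 7.29, with 5.21 ± 0.52 (edgeR adjusted p = 0.000369). The coagulation genes gave 1 higher (F10) and 3 lower (F5, Plaur, Plau) of 9 tested (median -0.77). The granule and progenitor genes outside the class rules gave 0 higher and 8 lower of 13 (median -5.14), Fcnb and Ms4a3 among them. The 10 genes named for the largest fold changes upward were Cx3cr1, Ms4a4c, Msr1, S100a4, H2-DMa, Ctss and Ccl9 with Ms4a6b, Gpr183 (an oxysterol receptor) and Crip1. Crip1, a small LIM domain protein, stood at 3422 and 1668 against 104 and 62.6, with 4.93 ± 0.63 (edgeR adjusted p = 0.000722). The 5 named downward were BC100530, Stfa2l1 and Stfa1, which are stefin A family genes with near-identical copies and so uncertain counts, and Asprv1 and Inhba. Asprv1, a protease, had 0 UMIs in gated cells and was at least 88.7-fold lower.

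Some of these calls rested on 1 mouse or on the choice of cells. Without the gated cells of Mouse #1, the test was lost for Eno3, Tnfrsf11a, Il6ra, Trem2, Cd74, H2-Aa, H2-Ab1, H2-Eb1, Ifi204, Zbp1, Ifitm1, Plau and Tpx2 (edgeR adjusted p from 0.0553 to 0.658), and the fold changes of H2-Aa and H2-Eb1 turned to -4.46 and -4.21. Without those of Mouse #2 it was lost for Klf4, Tnfrsf11a, Csf2ra, Itgal, Fcer1g, S100a8, S100a9 and Hmmr (edgeR adjusted p from 0.0598 to 0.0795). Under stricter limits on cells (2000 genes and 10% mitochondrial UMIs) 21 of 101 named genes lost it, among them Tyrobp, Fcer1g, Ccr1, Itgal and S100a8, and in a fit of both classes alone 11 lost it, Lyz2 and Klf4 among them. DESeq2 did not call Clec4e (adjusted p = 0.0956) or Fcgr4 (adjusted p = 0.0642).

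**Figure D3:**
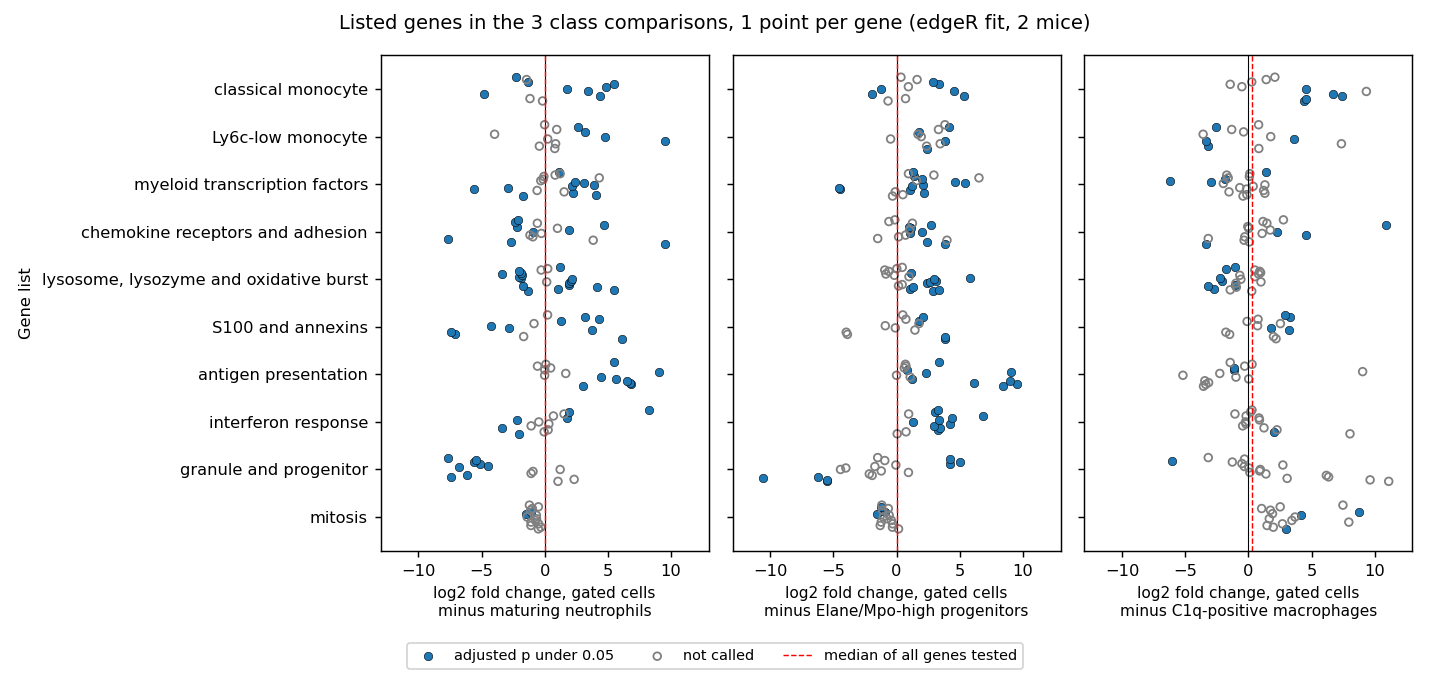
Each point is 1 listed gene, placed by its log2 fold change (horizontal, gated cells minus the other class) in its gene list (vertical), with filled points for adjusted p under 0.05 in edgeR, open points otherwise and a dashed line at the median of all genes tested. The granule and progenitor genes lie mostly to the left against neutrophils (8 of 13 lower) and the interferon response genes to the right against progenitors (10 of 13 higher).

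Against Elane/Mpo-high progenitors, the gated cells were higher in interferon response, lysosomal, antigen presentation and adhesion genes, and lower in the proteases of primary granules. Among the antigen presentation genes, Cd74 and the class II chains were uneven between cells and mice. Of all genes, 16.1% were called, 8.72% higher and 7.36% lower, and the median of all genes was 0.01. The interferon response list had the largest share called of the lists given here, with 10 of 13 genes higher and none lower (median 3.30). Ifi27l2a stood at 881 and 354 scaled CPM against 5.50 and 4.996, with 6.85 ± 0.61 (edgeR adjusted p = 0.000922). Irf7, the transcription factor that amplifies the type I interferon response, stood at 66.6 and 32.9 against 2.27 and 3.12, with 4.26 ± 0.48 (edgeR adjusted p = 0.00132). The others included Ifitm3, Ifitm6, Isg15, Oasl2, Zbp1, Ifi204 and Ms4a4c. Of the Zbp1 UMIs 31.8% came from cells without Ms4a6c, and 40.4% of those of Isg15 from 1 cell. The gated values of Ifi27l2a and Irf7 lay above the progenitor values in both mice. Ly6c2 did not pass the test, at 1489.7 and 711 against 1775 and 1736, with -0.67 ± 0.59 (edgeR adjusted p = 0.459).

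The classical genes gave 4 higher (Fn1, Vcan, Ctss, Lyz2) and 2 lower (Chil3, Plac8) of 11 (median 0.94). Lyz2 was at 8169.5 and 6789 scaled CPM against 1135 and 876, with 2.89 ± 0.31 (edgeR adjusted p = 0.00126), and Fn1 at 945 and 1238 against 35.0 and 16.9, with 5.36 ± 0.39 (edgeR adjusted p = 0.000439). Chil3, a chitinase-like secreted protein, was lower at 321 and 351 against 1156 and 1393, with -1.93 ± 0.34 (edgeR adjusted p = 0.00721). Of the Ly6C-low genes 4 of 11 were higher (Cx3cr1, Pou2f2, Gngt2, Nr4a1) and none lower (median 2.41). Gngt2, a G protein subunit, stood at 63.5 and 67.6 against 2.59 and 4.996, with 4.18 ± 0.45 (edgeR adjusted p = 0.00126). Nr4a1, the nuclear receptor that Ly6C-low monocytes depend on, stood at 172 and 325 against 72.2 and 18.1, with 2.41 ± 0.54 (edgeR adjusted p = 0.0188), and 24.9% of its gated UMIs came from cells without Ms4a6c.

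Among transcription factors 9 of 18 were higher (among them Maf, Irf5, Klf4, Id2, Bach1, Runx1, Zeb2, Cebpb) and 2 lower (Cebpe, Gfi1), with a median of 1.32. Klf4, a factor of the monocyte lineage, stood at 289 and 489.5 scaled CPM against 128 and 43.1, with 2.16 ± 0.60 (edgeR adjusted p = 0.0396). Of the Id2 UMIs 23.9% came from cells without Ms4a6c. Irf8 stood at 403 and 84.0 against 159.6 and 190.5 and did not pass the test, with 0.50 ± 0.57 (edgeR adjusted p = 0.571). Gfi1, a transcriptional repressor active in the granulocyte branch, had 3 UMIs in the gated cells. It stood at 3.03 and 0 against 44.4 and 52.5, a ratio of 0.0519 (95% exact counting interval 0.0106 to 0.154, edgeR adjusted p = 0.00233).

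The lysosome list gave 10 higher and 0 lower of 19 (median 1.09), including Cd68, Mpeg1, Psap, Lgals3, Ctsb, Ctsc and Slc11a1 beside Lyz2 and Ctss. Cd68, a lysosomal membrane protein of phagocytes, stood at 116 and 96.8 scaled CPM against 15.2 and 8.74, with 3.10 ± 0.32 (edgeR adjusted p = 0.00126). The antigen presentation genes gave 9 higher and 0 lower of 14 (median 1.76, or 2.34 with genes at 0 set at their floor). Among the 9 were Cd74, with 49.0% of its gated UMIs in 1 cell, and H2-Aa, H2-Ab1 and H2-Eb1. At least 10 UMIs of these 3 chains were seen in 4 gated cells of Mouse #1 and 0 of Mouse #2. Pattern recognition gave 8 and 1 of 19 (median 1.72), with Clec12a lower, and chemokine receptors and adhesion 7 and 0 of 15 (median 1.09). Clec4a1 had 80.7 and 65.8 against 0.324 and 2.50, with 5.95 ± 0.68 (edgeR adjusted p = 0.00184). Itgal, a chain of the leukocyte integrin LFA-1, had 113 and 67.6 against 25.9 and 18.7, with 2.01 ± 0.28 (edgeR adjusted p = 0.00281). The S100 list gave 4 higher (S100a4, S100a6, Anxa5, Tmsb10) and 0 lower of 12 (median 1.10). Growth factor receptors gave 3 higher (Tyrobp, Il6ra, Tnfrsf1b) and 0 lower of 10 (median 0.73). The cytokines gave 4 higher (Ccl6, Ccl9, Ccl2, Nlrp3) and 0 lower of 14 (median 2.01), and of 9 coagulation genes only Thbs1 was called, higher (median 0.08, or 0.51).

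The granule and progenitor genes outside the class rules gave 4 lower (Prtn3, Ctsg, Ms4a3, Fcnb) and 3 higher (Mmp8, Mmp9, Ly6g) of 17 (median -1.72). Prtn3, proteinase 3 of primary granules, stood at 339.9 and 42.01 scaled CPM against 8831 and 9115, with -5.53 ± 0.90 (edgeR adjusted p = 0.00684). Ms4a3, a marker of granulocyte-monocyte progenitors, had 1 UMI in all gated cells against 1081 and 1191, a ratio of 0.000729 (95% exact counting interval 1.85e-05 to 0.00407, edgeR adjusted p = 4.39e-05). Some Prtn3 transcript was thus seen in the gated cells, but almost no Ms4a3. At least 10 UMIs of Prtn3 plus Ctsg were reached in 8 gated cells of Mouse #1 and 1 of Mouse #2. Of the higher genes, Mmp9 and Ly6g had 67.2% and 97.4% of their gated UMIs in 1 cell. Prss57, a further granule protease, had 0 UMIs in gated cells of both mice, at least 92.8-fold lower. Among the genes named for the largest fold changes upward were Ifi27l2a, Clec4a1, Fn1 and Cd74 with Ly6d, H19, Wfdc17, Lrp1 and Plbd1. Of the gated UMIs, 45.5% of those of Ly6d came from 1 cell, and 83.6% of those of H19 and 48.2% of those of Lrp1 came from cells without Ms4a6c. The share of Mmp9 from these cells was 29.3%, and 1 cell held 61.0% of the H19 UMIs. Downward, Prss57, Ms4a3 and Fcnb were named with Tmem216 and Gca.

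Without the gated cells of Mouse #1 the test was lost for Isg15, Cebpb, Nlrp3, Ly6g and Tpx2 (edgeR adjusted p from 0.0571 to 0.862), and the fold change of Irf8 was -1.08 (edgeR adjusted p = 0.0718), against 1.19 (edgeR adjusted p = 0.0309) without those of Mouse #2. Without Mouse #2 it was lost for Plac8, Klf4, Ccl2, Hmmr and Aurkb (edgeR adjusted p from 0.0833 to 0.133). Among 72 named genes, a fit of both classes alone lost 8, Klf4 and Nr4a1 among them. Without cells that carried UMIs of other classes, Mmp9, Ly6g, Ly6d, Hmmr, Tpx2 and Aurkb (edgeR adjusted p from 0.0599 to 0.517) lost it, and Ly6g turned to -3.73. With no Hp limit in the gate Chil3, Plac8, Hmmr and Aurkb (edgeR adjusted p from 0.0641 to 0.146) lost it, and the fold change of Chil3 was -0.81.

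Against C1q-positive macrophages, the gated cells were higher in 5 of 11 classical monocyte genes, 3 of 9 coagulation genes and 4 of 12 S100, annexin and related genes. They were lower in the cathepsins Ctsb, Ctsd and Ctsz, the nuclear receptor Nr1h3 and the mannose receptor Mrc1. The comparison rests on 6 and 8 macrophages. Of all genes, 4.52% were called, 1.97% higher and 2.55% lower, and the median of all genes was 0.28. The classical list gave 5 higher (Fn1, Ly6c2, Chil3 and Plac8 among them) and none lower of 11 (median 4.37, or 2.57 with genes at 0 set at their floor). Fn1 had 945 and 1238 scaled CPM against 1 UMI in the macrophages of each mouse, a ratio of 169.5 (95% exact counting interval 46.8 to 1401, edgeR adjusted p = 0.000299). Ly6c2 had 1489.7 and 711 against 0 and 97.2, with 4.37 ± 0.77 (edgeR adjusted p = 0.0149), and Plac8 had 1205 and 776 against 15.1 and 64.8, with 4.54 ± 0.49 (edgeR adjusted p = 0.00144). The gated cells exceeded the macrophages in both mice for each of these genes.

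Of the Ly6C-low genes, 3 of 11 were lower (Cx3cr1, Gngt2, Treml4) and 1 higher (Spn), with a median of -0.38. Cx3cr1 stood at 74.6 and 54.8 scaled CPM against 460.0 and 853, with -3.33 ± 0.53 (edgeR adjusted p = 0.0170), so the gated cells lay between neutrophils, where no UMI was seen, and these macrophages. Among transcription factors 3 of 18 were lower (Maf, Nr1h3, Id2) and 1 higher (Runx1), with a median of -0.29. Nr1h3, the liver X receptor alpha of splenic and marrow macrophages, had 3 UMIs in the gated cells, at 1.01 and 3.65 against 106 and 199.7, a ratio of 0.0123 (95% exact counting interval 0.00247 to 0.0382, edgeR adjusted p = 0.00566). Maf had 57.5 and 174 against 927 and 847, with -2.98 ± 0.46 (edgeR adjusted p = 0.00866). The lysosome list gave 7 lower and 0 higher of 19 (median -0.96), namely Ctsb, Ctsd, Ctsz, Cd68, Slc11a1, Hexa and Lamp1. Ctsd, cathepsin D, stood at 117 and 184 against 1206 and 1608, with -3.24 ± 0.28 (edgeR adjusted p = 0.000527). Ctss and Lyz2 did not pass the test here, with -1.44 ± 0.42 (edgeR adjusted p = 0.0882) and 0.26 ± 0.28 (edgeR adjusted p = 0.655).

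Pattern recognition genes gave 3 lower (Mrc1, Fcgr1, Ly96) and 1 higher (Fcgr2b) of 19 (median -0.97). Mrc1, the mannose receptor, had 5.04 and 1.83 scaled CPM, most of it in 1 cell, against 1086 and 723, with -7.84 ± 0.63 (edgeR adjusted p = 0.000312). Antigen presentation gave 2 lower (B2m, H2-K1) and 0 higher of 14 (median -1.31, or -1.18 with genes at 0 set at their floor). The S100 list gave 4 higher (Tmsb10, S100a10, Emb, S100a11) and 0 lower of 12 (median 1.90). Coagulation gave 3 higher (F10, Thbs1, Plaur) and 0 lower of 9 (median 2.23, or 0.92). F10, coagulation factor X, was at 77.7 and 63.9 with 0 UMIs in macrophages of both mice, at least 7.84-fold higher. Thbs1, thrombospondin, stood at 698 and 882 against 7.54 and 16.2, with 5.97 ± 0.61 (edgeR adjusted p = 0.000896). Adhesion genes gave 3 higher (Itgal and Itgb7 among them) and 1 lower (Cx3cr1) of 15 (median 1.08), and Itgb7 was at least 20.4-fold higher. Also named upward, with 0 macrophage UMIs, were Ramp1, Hist1h2ab, Pdlim1, Gpr141 and Sgms2, at least 6.44-fold to 12.3-fold higher. No growth factor receptor of 10 was called (median 0.13), 1 interferon gene of 13 was higher (Ifitm2, median 0.28), 1 cytokine of 14 was lower (Cxcl16, median -0.28, or -0.74), and 1 granule gene of 17 was lower (Retnlg, median 0.89, or -0.14). The 5 genes named downward, at 0 UMIs in gated cells, were Pf4, Ms4a7, Cd209f, Gdf15 and Spic, the last a transcription factor of iron-recycling macrophages, at least 129-fold lower.

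In a fit of both classes alone 20 of 52 named genes lost the test, Ly6c2, Maf, Id2 and Runx1 among them, and with the mouse as a block Fcgr2b lost it (edgeR adjusted p = 0.0539). DESeq2 did not call Spic (adjusted p = 0.202) or Fcgr2b (adjusted p = 0.149), S100a11 lost its call without the highest Scrublet scores (edgeR adjusted p = 0.142), and with no Hp limit in the gate Treml4, Runx1 and Retnlg (edgeR adjusted p from 0.0540 to 0.675) lost theirs. The balance of calls over all genes was 214 higher and 276 lower, but 27 and 117 in the fit of both classes alone, 874 and 528 with no filter on low counts and 372 and 362 without the highest Scrublet scores. Without the gated cells of Mouse #1 the test was lost for Treml4, Runx1, Slc11a1, Ly96, Fcgr2b, H2-K1, Itgal and Retnlg (edgeR adjusted p from 0.0512 to 0.105), and without those of Mouse #2 for Treml4, Runx1, Ctsz and Retnlg (edgeR adjusted p from 0.0542 to 0.0797).

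Some genes were called higher in each comparison, which share the gated sums. Among those with at least 100 scaled CPM in both mice, Fn1 had log2 fold changes of 4.37, 5.36 and 7.42 against neutrophils, progenitors and macrophages. Tmsb10, an actin-binding peptide, stood at 7105 and 6002 scaled CPM with 3.18, 2.12 and 3.28, and Ahnak, a large scaffold protein, at 628 and 663 with 3.34, 3.13 and 4.06. Runx1, a transcription factor of hematopoiesis, stood at 191 and 210.0 with 1.11, 1.28 and 1.42, and 30.9% of its UMIs came from cells without Ms4a6c.

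Few genes of cell division were called. Against neutrophils 0 of 15 mitosis genes were higher and 2 lower (Hmmr, Tpx2; median -0.98), against progenitors 0 and 3 (Hmmr, Tpx2, Aurkb; median -0.94), and against macrophages 3 and 0 (Mki67, Cenpa, Tpx2; median 2.70, or 1.97). The share lower against neutrophils was close to the 13.6% of all genes. None of 14 S phase genes was called in any of the 3 (medians 0.39, -0.76 and 0.86). Cells were called cycling where the mitosis list reached 5 UMIs per 10000. By this measure 16 of 44 gated cells of Mouse #1 (36.4%, Wilson 23.8 to 51.1%) and 5 of 21 of Mouse #2 (23.8%, 10.6 to 45.1%) were cycling, against 18.7% and 17.1% of neutrophils and 82.4% and 76.5% of progenitors. Cycling gated cells were deeper, with medians of 29709 and 26530 UMIs against 11963 and 15872. At 2000 UMIs per cell, at least 2 mitosis UMIs were seen in 27.3% and 19.05% of gated cells (47.7% and 42.9% unthinned) and in 23.9% and 21.9% of B cells, which hold dividing precursors. All 21 cycling cells carried Ms4a6c.

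Within the cells with Ms4a6c, the 21 cycling cells (16 and 5) and the 27 others (20 and 7) had different levels of monocyte genes. These levels are plain CPM in the order Mouse #1 and Mouse #2, and since the cells were grouped after values had been seen, they are descriptions with no test. In Mouse #2, 1 cycling cell with 147 collagen and Sparc UMIs per 10000 held 63046 of the 171880 UMIs of the cycling cells. Among the 7 others of that mouse, 1 cell had 246 such UMIs per 10000. The part of these 2 cells in the levels of Mouse #2 was not tested. Ly6c2 stood at 2255 and 1693 in cycling cells and 1247 and 908 in the others. Prtn3 stood at 663 and 116 against 39.1 and 0, and all 9 gated cells with at least 10 UMIs of Prtn3 plus Ctsg were cycling. These genes were higher in the cycling cells of both mice, but in Mouse #2 Prtn3 had 20 UMIs there, 70.0% of them in 1 cell.

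The opposite order held for genes of mature monocytes. Lyz2 stood at 6782 and 8331 CPM in cycling cells and 16967 and 21163 in the others, Ctss at 345 and 239 and 1112 and 1278. Several Ly6C-low genes followed it. Cx3cr1 stood at 42.9 and 11.6 and 188 and 259, and Gngt2 at 18.4 and 5.82 and 185 and 333. Pou2f2 stood at 57.1 and 52.4 and 238 and 287, and Treml4 at 2.04 and 0 and 24.9 and 37.0. Ace, the angiotensin-converting enzyme, was at 0 in the cycling cells of both mice and at 60.4 and 55.6 in the others, where 5 and 2 cells had a UMI. Plac8 stood at 1216 and 628 and 2010.4 and 2593, and Ifi27l2a at 586 and 221 and 1993 and 1408. For each of these genes both mice were lower in the cycling cells. In Mouse #1, however, Treml4 rested on 1 UMI in the cycling cells and 7 in the others, with overlapping counting intervals. The Ly6C-low gene Nr4a1 stood at 202 in the cycling cells and 238 in the others of Mouse #1. Its counting intervals (164 to 246 and 184 to 302) overlapped. Csf1r and Ccr2 belonged to the gate and are described only. Csf1r stood at 106 and 98.9 and 273 and 324 and Ccr2 at 576 and 367 and 867 and 963.

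F13a1, at 786 and 972 CPM in cycling cells and 767 and 593 in the others, differed by less than its counting error in Mouse #1. Fn1, at 1055 and 2222 and 1289 and 1417, was lower in the cycling cells of Mouse #1 and higher in those of Mouse #2. The chemokine receptor Cxcr4 was close in both sets at 159 and 180.4 and 167 and 241. Cd74 stood at 44.9 and 52.4 and 3531 and 435, with 49.0% of all gated Cd74 UMIs in 1 cell.

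**Figure D4:**
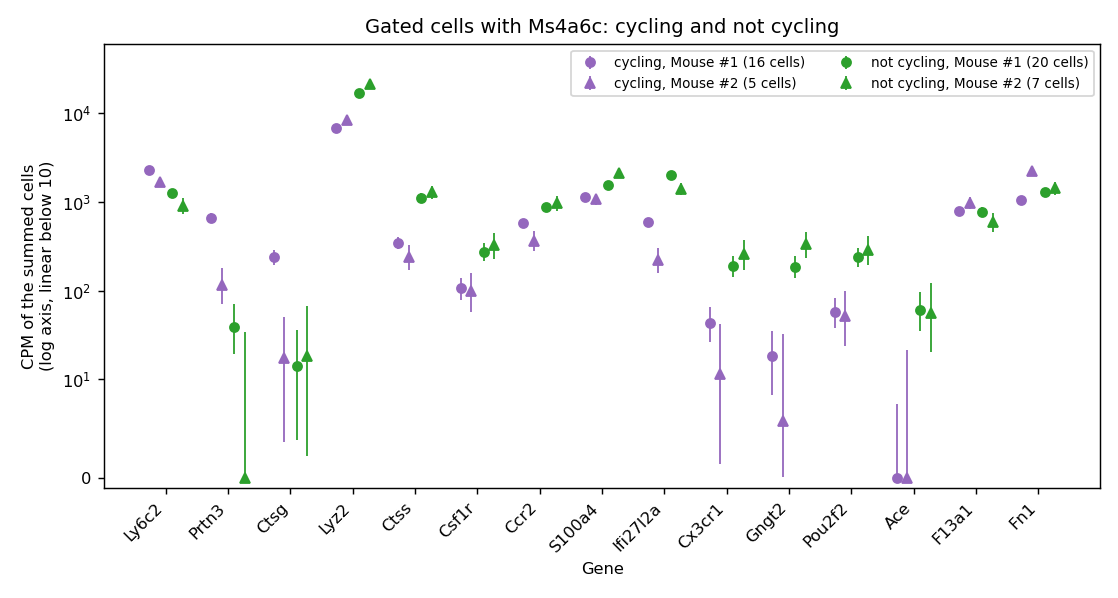
Points give the plain CPM (vertical, log axis that is linear below 10) of each gene (horizontal) in the summed cells with Ms4a6c, with 95% exact Poisson intervals as bars, which cover counting error only. Circles are Mouse #1 and triangles Mouse #2, and the cycling cells (16 and 5) lie above the others (20 and 7) for Ly6c2 and below them for Lyz2, Ctss, Cx3cr1 and Gngt2.

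The gated cells were also divided in each mouse at the median Ly6c2 level, 9.67 and 4.12 UMIs per 10000, since Ly6C marks the classical state. Of 4154 genes tested between the Ly6c2-high and Ly6c2-low cells, edgeR called 0 (0.0%), with 317 at an unadjusted p under 0.05 and a lowest adjusted p of 0.646. With the mouse as a block, 0 were called and the lowest adjusted p was 0.0562, while DESeq2 called 14, of which 3 were higher and 11 lower in the Ly6c2-high cells. The genes fitted included Ly6c2, which made the split, so a call of Ly6c2 within these counts would not be a finding. Among the DESeq2 calls were Prtn3 and Fabp5 higher and Tnc, Mmp13, Mmp9 and Apoe lower. Of the lower genes, 78.7% of the Tnc UMIs and 88.6% of the Mmp13 UMIs came from cells without Ms4a6c, as did 29.3% of those of Mmp9 and 23.2% of those of Apoe. Such cells made up 1 and 0 of the Ly6c2-high cells but 7 and 9 of the Ly6c2-low cells. The mitosis genes had 11 of 11 fold changes above 0 (median 1.45) and the S phase genes 13 of 13 (median 1.15), against a median of -0.04 over all genes. Of the Ly6c2-high cells 13 and 4 were cycling, against 3 and 1 of the Ly6c2-low cells. The Ly6c2-high cells were also deeper, with medians of 21565 and 20758 UMIs against 10868 and 16260. The part of depth and of the cells without Ms4a6c in these directions was not tested. Ccr1 had 96.5 and 141 scaled CPM in Ly6c2-high and 15.2 and 16.4 in Ly6c2-low cells (2.86 ± 0.46, edgeR adjusted p = 0.646, or 0.0938 with the mouse as a block).

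Receptors on the gated cells and their ligands on the reticular cells, the Cxcl12-abundant stroma that made up 1514 and 2891 cells of the sort, were compared as plain CPM with no test. Cxcr4, the receptor of CXCL12, was at 156 and 134 in gated cells and 2.13 and 1.49 in reticular cells, while Cxcl12 was at 8159 and 8126 in reticular cells and 50.5 and 662 in gated cells. Ccr2 was at 668 and 424 and 0.339 and 0.240, and its ligands Ccl2 and Ccl7 were at 419 and 933 and 130.2 and 201 in reticular cells. Csf1r was at 151 and 120.4 and 0.0968 and 0.506, and its ligands Csf1 and Il34 at 479 and 455 and 99.1 and 130.2 in reticular cells. Ccr2 and Csf1r belonged to the gate, so their levels in gated cells are descriptions. The ligands of all 3 receptors were seen in reticular cells of both mice.

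Cx3cr1 was at 86.8 and 69.4 CPM in gated cells with its ligand Cx3cl1 at 75.8 and 86.8 in reticular cells. Itga4, the integrin chain that binds VCAM-1, was at 221 and 118 and Vcam1 at 1681 and 1610.5 in reticular cells, while Itgal and Itgb2, which form the receptor of ICAM-1, were at 131 and 85.7 and 208 and 134 and Icam1 at 40.8 and 36.6. The receptor of GM-CSF, Csf2ra with Csf2rb, was at 216 and 159.7 and 143 and 60.2, but Csf2 had 0 UMIs in reticular cells of both mice. Kit was at 3.52 and 20.8 with Kitl at 1018 and 1102 in reticular cells, and Tnfrsf11a (RANK, the receptor of osteoclast formation) at 5.87 and 4.63 with its ligand Tnfsf11 at 457 and 661. Kit and Tnfrsf11a were therefore the lowest of the receptors given here. Levels of a ligand in the gated cells of Mouse #2, such as Cxcl12, stood beside a higher Col1a1 level, which was 93.9 and 3287 in those of the first and second mouse. The part of the collagen-bearing cells in these ligand levels was not tested.

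**Figure D5:**
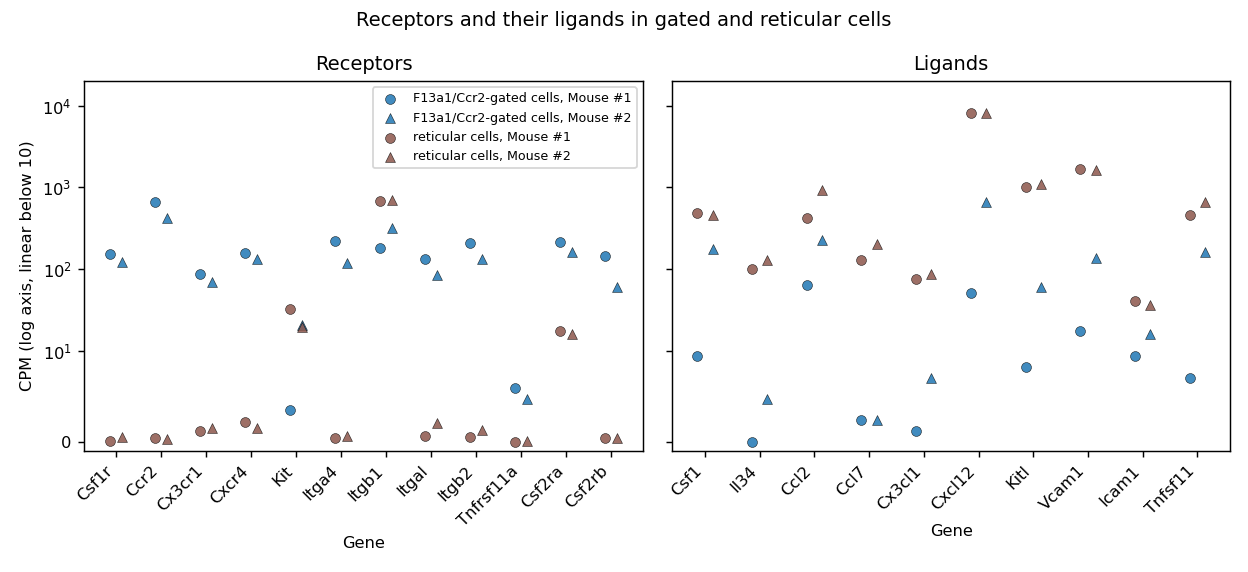
Points give the plain CPM (vertical, log axis that is linear below 10) of receptors (left) and ligands (right) in gated and reticular cells, with circles for Mouse #1 and triangles for Mouse #2. Cxcr4 is higher in gated cells (Ccr2 and Csf1r were used by the gate), Itgb1 and all 10 ligands are higher in reticular cells of both mice, and gated cells of Mouse #2 lie above those of Mouse #1 for most ligands.

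The reporters were uneven among gated cells. The eGFP feature had 83 and 387 UMIs in the gated cells, 97.4 and 896 CPM, against 11682 and 11232 CPM in reticular cells and 3311 and 3461 in free RNA. At 2000 UMIs per cell eGFP was seen in 9.09% and 42.9% of gated cells against 10.4% and 17.2% of B cells. At least 5 eGFP UMIs per 10000 were reached in 2 and 6 gated cells, and all 8 of them also had at least 10 UMIs of collagen genes and Sparc. Of these 8 cells, 4 lacked Ms4a6c (1 in Mouse #1 and 3 in Mouse #2), and the rest carried it. The Wilson intervals of the eGFP shares at 2000 UMIs overlapped in Mouse #1 (3.59 to 21.2% and 7.003 to 15.1%) and not in Mouse #2 (24.5 to 63.5% and 12.9 to 22.5%). Unthinned, the shares were 29.5% and 66.7% of gated cells and 22.1% and 35.3% of B cells.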

How the data were processed

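Femur cells of 2 mice of 1 group were measured, with 1 library of single-cell 3′ RNA sequencing per mouse and 18000 cells loaded for each. The authors deposited raw UMI counts per feature and barcode, made with Cell Ranger 3.0.0 on mm10 (GRCm38) with reporter sequences added. The annotation release is not given in the sources used here. The tables held 28006 features and every listed barcode. Several of the 8 reporter features share sequence, so their counts are uncertain.

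Barcodes with 1000 or more genes and no more than 15% of UMIs from mitochondrial genes were kept as cells. Doublets were kept, since Scrublet marked 1 and 3 cells and so gave no usable call, and an alternative left out the 60 and 168 cells of highest score. The gate, the classes and the gene lists were chosen with earlier results of these data known. UMI counts were summed per mouse and class (6 to 235 cells a sum). The sums were fitted with edgeR 4.0.16 in R 4.3.3 by its quasi-likelihood test over 10 sums of 5 classes, B cells included, with TMM scaling, filterByExpr and Benjamini-Hochberg adjustment at 0.05. Genes of the class rules were described and not tested. The comparison of cycling with other cells was not run, since 5 cells of Mouse #2 were under the minimum of 10. Both members of a pair of sums came from the same animal, and the correlations of their deviations were 0.06, 0.28 and -0.04 for the 3 class comparisons and 0.40 for the Ly6c2 split. Alternatives were DESeq2 1.42.0, its size factors, no filter, the mouse as a block, a fit of both classes alone, stricter cell limits, other gates and leaving out each mouse.

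Besides listed genes, the genes named were the 10 highest and 5 lowest called fold changes with 1 direction in both mice and at least 50 CPM in the higher class, outside class rules and outside immunoglobulin, mitochondrial, Gm and Rik genes. Genes higher in all 3 comparisons were named from those with at least 100 CPM. A few genes that these rules would name are not reported here, though list counts and medians include them. Figures and sums used Python 3.11.15 with scanpy 1.11.5. Depth limits precision most in macrophages (102833 and 166746 UMIs). Wilson and Poisson intervals, at 95%, and the floor of 3 UMIs cover counting error only.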

Additional observations from a re-analysis of the deposited data

Results flagged for a closer look

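Reporter transcripts, which entered no comparison, were seen in gated cells. There were 470 eGFP UMIs over both mice, 83 and 387. There were also 119 tdTomato UMIs, 16 and 103, of which 78.2% came from 1 cell. Plain CPM of tdTomato was 18.8 and 238 in gated cells. At 2000 UMIs per cell, tdTomato was seen in 4.55% and 9.52% of gated cells against 7.21% and 9.44% of B cells. No control sample without the reporters was analysed here.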

How the results depend on the processing

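Of 225 gene results named, 150 kept their direction and their side of the threshold under every alternative run. Stricter cell limits gave 1674 calls against neutrophils (2585 as reported). A fit of both classes alone gave 905 against progenitors (1744) and 144 against macrophages (490), and 7 gene results could not be fitted in it because fewer genes passed the filter. Without the filter on low counts the numbers were 2789 and 1402. For the Ly6c2 split (0 calls), with Ly6c2 itself among the genes fitted, DESeq2 gave 14, no filter 580 and the gate without Hp 1. That gate raised the share of Mouse #1 to 2.25%. Leaving out the gated cells of 1 mouse gave 2450 to 2584 calls against neutrophils, 1399 to 2444 against progenitors and 425 to 612 against macrophages. It was not run for the Ly6c2 split, which would keep no residual degrees of freedom. With the mouse as a replicate block there were 2704, 2096, 470 and 0 calls, and of the named genes it changed only the call of Fcgr2b.

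Some log2 fold changes turned in sign. Under stricter cell limits Ly6c2 and Ifitm1 against neutrophils were at 0.058 and 0.37. Without cells that carried UMIs of other classes Ly6g against progenitors was at -3.73. Leaving out the gated cells of Mouse #1 or Mouse #2 gave -0.70 to 0.26 for Ly6c2, -4.46 to 7.80 for H2-Aa and -4.21 to 7.49 for H2-Eb1 against neutrophils, and -1.08 to 1.19 for Irf8 against progenitors. Ctss against macrophages passed the threshold with DESeq2 and without the filter. Where no construction is named above, the cause was not tested. The 6 and 8 macrophages and the 65 gated cells limit the depth most.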
